A study of Rattus norvegicus with 6 samples.

Results

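Granins and prohormone processing enzymes were followed in GH4C1 cells, a line from a rat pituitary tumour that makes both prolactin and growth hormone. Of the 10 genes in this family that were looked for, Chga, Chgb, Scg2, Scg3, Scg5, Vgf, Resp18, Pcsk2 and Cpe each had 1 probe set annotated to that symbol alone, which made 9 genes out of 14217 with such a probe set on the array. Pcsk1 was not analysed here. The 3 R271W cultures had received a lentiviral vector in which the PGK promoter drives POU1F1(R271W), followed by an internal ribosome entry site and EGFP. POU1F1 is the pituitary transcription factor that activates the prolactin and growth hormone genes, and the series title calls the R271W form a dominant negative mutant. The 3 control cultures are described in the design text as carrying EGFP alone under the same promoter. All cultures were transduced for 16 hours at a multiplicity of infection of 5 with polybrene and then grown for 4 days in regular medium, and the labels call the replicates biological. Values are MAS5 signals, an Affymetrix summary of probe brightness on a linear scale, from 1 array per culture.

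Granins are acidic proteins stored with hormones in the dense-core granules of endocrine cells, where they aggregate in the trans-Golgi network and help granules form. Several are themselves precursors. The prohormone convertases encoded by Pcsk1 and Pcsk2 cut precursors after pairs of basic residues, and carboxypeptidase E, encoded by Cpe, then trims the exposed basic residues. In lactotrophs and somatotrophs these proteins share granules with prolactin and growth hormone.

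The arrays differed between the groups in ways that may bear on any value below. The median signal of all probe sets was 25.5 to 26.9 on R271W arrays and 22.4 to 22.9 on control arrays. Hybridisation spikes averaged 9.17 log2 units on R271W arrays and 8.93 on control arrays, without overlap, and the signal at the 3' end of beta-actin mRNA over that at its 5' end was 1.96 ± 0.099 in R271W samples and 1.82 ± 0.0076 in control samples (SD, n = 3 each), also without overlap. Poly-A spikes and both GAPDH ratios overlapped. The part of these differences in the results was not tested. Among markers of the line, Prl and Gh1 were bright, and Pou1f1 had signals of 1836 ± 86.2 in R271W cells and 2301 ± 90.1 in controls (SD, n = 3 each, log2 change -0.33, limma adjusted p = 0.00486, or 0.107 with a variance model that ignores signal intensity). It is not stated whether a Pou1f1 probe set detects the transgene. Of 8 markers of other pituitary cells, 7 never exceeded a signal of 56.6 and summed to 73.0 to 90.7 on R271W arrays and 61.2 to 91.8 on control arrays. Dcn, listed as a stromal marker, was the exception, at 1205 ± 37.1 in R271W cells and 2770.1 ± 90.4 in controls (n = 3 each, log2 change -1.20, limma adjusted p = 2.12e-07). S100b, listed for the same cells as Dcn, averaged 6.74 ± 4.61 in R271W cells and 2.73 ± 1.58 in controls. Which cells the Dcn signal came from was not tested.

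Of the 8 members bright enough to be tested, 4 rose in R271W cells, which were Chgb, Scg3, Vgf and Resp18, and 0 fell at an adjusted p under 0.05 by limma. Their folds lay between 1.31 and 1.47. Chga, Scg2, Scg5 and Cpe did not pass, and Pcsk2 lay below the signal filter. Scg5 joined the 4 in having every R271W array above every control array, which was so for 21.2% of all genes tested. Across all genes tested, 9.87% were called higher and 8.98% lower. All 8 tested members had mean signals above 200, and among probe sets that bright 11.3% were called higher and 19.2% lower. The median log2 change of the 8 members was 0.30, beside 0.057 for all 10143 genes tested. It was 0.10 when each array was centred on its median signal, which moves every log2 change by -0.20 and left 3 members higher and 1, Chga, lower. That centring turned the counts over all probe sets, 1596 higher and 1344 lower, into 730 and 3132. All 4 calls rest on a variance model that follows signal intensity: without it none of the 8 passed, and the adjusted p was 0.0522 for Chgb, 0.0542 for Resp18, 0.071 for Vgf and 0.079 for Scg3. In bulk cultures, fewer cells of a type and less RNA per cell cannot be told apart.

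**Figure D1:**
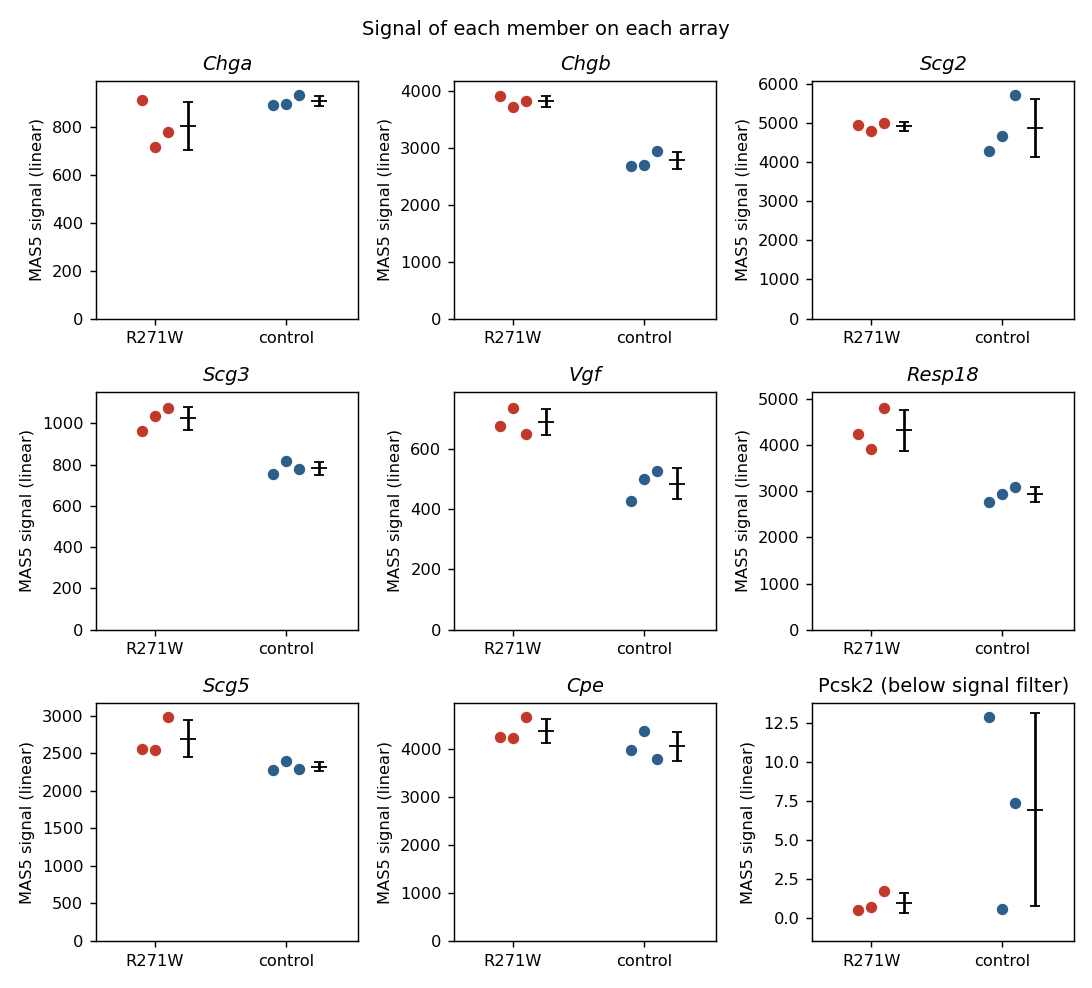
MAS5 signal (linear, vertical axis from 0 except for Pcsk2) of the 9 measured members on each array, with R271W arrays in red and control arrays in blue, and the mean ± SD (n = 3) beside the points in black. Chgb, Scg3, Vgf, Resp18 and Scg5 have every R271W array above every control array, and Pcsk2 has no signal above 12.9.

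The chromogranins, the classical acidic cargo, did not move together. Chgb, which encodes chromogranin B, had signals of 3909.5, 3722 and 3814 on the R271W arrays, against 2685, 2706 and 2947 on the control arrays. The lowest R271W array stood well above the highest control array. The fold was 1.37 (95% confidence interval 1.25 to 1.51), a log2 change of 0.46 (SE 0.064, limma adjusted p = 0.000337). Chga, which encodes chromogranin A, the protein most widely used as a blood marker of neuroendocrine tumours, had signals of 913, 716 and 779.5 in R271W cells and 893, 897 and 933 in controls. One R271W array lay among the controls and the other two lay below them. Its log2 change was -0.18 (interval -0.38 to 0.0091, limma adjusted p = 0.192). The Chga call depended on the setting: the log2 change was -0.38 under median centring (adjusted p = 0.00677) and -0.28 without R271W replicate 1 (adjusted p = 0.0445), both lower and past the threshold.

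The secretogranins also differed among themselves. Scg3 encodes secretogranin III, which binds chromogranin A and cholesterol-rich granule membranes. Its signals were 963, 1034 and 1073 in R271W cells and 753, 817 and 776 in controls, so that the groups did not overlap. The fold was 1.31 (interval 1.17 to 1.46), a log2 change of 0.39 (SE 0.076, limma adjusted p = 0.00344), and under median centring it was 0.19 and did not pass (adjusted p = 0.148). Scg2 encodes secretogranin II, the precursor of the peptide secretoneurin, and gave signals of 4948, 4787 and 5005 in R271W cells and 4275, 4655 and 5702 in controls. The controls spread to both sides of the R271W arrays. The log2 change was 0.021 (interval -0.17 to 0.21, limma adjusted p = 0.903), and its sign turned with the scaling (-0.18 under median centring).

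Vgf and Resp18 encode further granule cargo. VGF is a neurotrophin-inducible precursor of several secreted peptides. Vgf signals were 677, 735 and 650.3 in R271W cells and 426, 499 and 527 in controls. Every R271W array was above every control array by more than the spread of either group. The fold was 1.42 (interval 1.24 to 1.64), a log2 change of 0.51 (SE 0.095, limma adjusted p = 0.00249). Resp18, the regulated endocrine-specific protein 18 gene first described in rat pituitary, had signals of 4232, 3911 and 4791 in R271W cells and 2766, 2926 and 3083 in controls. The R271W arrays were all higher, and also more spread, with means of 4311 ± 446 in R271W cells and 2925 ± 158 in controls (SD, n = 3 each). The fold of 1.47 (interval 1.31 to 1.65) was the highest of the 8, a log2 change of 0.56 (SE 0.078, limma adjusted p = 0.000349).

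The promoters of 4 of these genes are shown, Chgb and Resp18 because they had the smallest adjusted p of the family. Among the 8 members with a promoter window, Vgf and Scg2 are those that hold a full cyclic AMP response element. They are shown because they differed in whether they rose. Each promoter is the RefSeq window of 300 bases on GRCr8, from 250 before to 50 after the annotated start. Vgf lies at chr12:25276971-25277270 (minus strand), Scg2 at chr9:88256817-88257116 (minus), Resp18 at chr9:84220137-84220436 (minus) and Chgb at chr3:140496462-140496761 (plus). Capitals mark the cyclic AMP response element in Vgf and Scg2, the CCAAT boxes in Resp18 and the GC box in Chgb.
Vgf: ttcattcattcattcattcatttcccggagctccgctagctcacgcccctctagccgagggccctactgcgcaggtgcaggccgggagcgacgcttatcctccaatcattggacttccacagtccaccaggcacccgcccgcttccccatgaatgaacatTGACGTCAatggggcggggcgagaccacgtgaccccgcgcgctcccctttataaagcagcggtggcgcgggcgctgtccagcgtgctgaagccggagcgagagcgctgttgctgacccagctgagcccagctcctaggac
Scg2: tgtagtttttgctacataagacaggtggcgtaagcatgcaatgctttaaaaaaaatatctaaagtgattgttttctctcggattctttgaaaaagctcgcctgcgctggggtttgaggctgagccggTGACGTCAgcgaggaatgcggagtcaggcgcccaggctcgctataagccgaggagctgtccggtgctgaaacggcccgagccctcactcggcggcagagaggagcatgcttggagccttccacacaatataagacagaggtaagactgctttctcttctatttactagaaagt
Resp18: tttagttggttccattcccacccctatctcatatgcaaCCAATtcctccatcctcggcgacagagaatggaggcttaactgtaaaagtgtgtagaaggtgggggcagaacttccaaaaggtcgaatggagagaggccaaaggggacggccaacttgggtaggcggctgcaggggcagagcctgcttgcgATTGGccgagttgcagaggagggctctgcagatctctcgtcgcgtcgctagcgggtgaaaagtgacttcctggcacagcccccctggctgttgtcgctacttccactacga
Chgb: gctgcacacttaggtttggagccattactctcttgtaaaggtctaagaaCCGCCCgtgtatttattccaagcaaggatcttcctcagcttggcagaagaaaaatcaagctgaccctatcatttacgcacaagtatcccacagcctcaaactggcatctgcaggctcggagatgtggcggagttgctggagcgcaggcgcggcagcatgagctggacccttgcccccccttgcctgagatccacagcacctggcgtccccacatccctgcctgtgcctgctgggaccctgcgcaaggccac

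Promoter windows were matched for 8 members, all but Chga and Pcsk1, and 6 motifs were searched on both strands. The cyclic AMP response element TGACGTCA, bound by CREB-family factors, was found in Vgf and Scg2, starting 90 and 123 bases before the start, and 1.83% of all 33469 promoter windows hold it. The shorter TGACG, which overlaps the full element there, was found in 6 of 8 members and in 21.2% of all windows. CCAAT was found in 4 members and in 37.5% of all windows, the GC box GGGCGG in 5 and 33.1%, and TATAAA in Vgf alone among the members and in 14.2%. A POU1F1-type element, TATNCAT, was found in 0 of the 8 windows and in 9.88% of all. These matches are descriptions of letters in the windows. Chgb and Resp18, the called members with neither the full element nor TGACG in the window, rose by 0.46 and 0.56 on the log2 scale. Vgf, which holds the full element, rose by 0.51, while Scg2, which holds it too, had a change of 0.021. Scg3, which holds TGACG alone, rose by 0.39, while Scg5 and Cpe, which also hold it, changed by 0.21 and 0.11 and did not pass. Whether any motif had a part in the changes was not tested.

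The processing side of the family showed no member past the threshold. Scg5 encodes 7B2, the chaperone that the convertase PC2 needs to mature. Its signals were 2557, 2545 and 2978 in R271W cells and 2275, 2392.5 and 2296 in controls, with every R271W array above every control array. The log2 change was 0.21 (interval 0.053 to 0.37, limma adjusted p = 0.0686). It passed under quantile normalization (0.32, adjusted p = 0.00111) and was 0.013 under median centring. Pcsk2, which encodes PC2 itself, had signals of 0.481, 0.667 and 1.69 in R271W cells and 12.9, 0.527 and 7.35 in controls. Its mean log2 signal was below the filter, set at a signal of 11.2, so it was not tested and no direction is given. Cpe had signals of 4242, 4217 and 4662 in R271W cells and 3978, 4370.5 and 3790.1 in controls. The groups overlapped, and the log2 change of 0.11 (interval -0.039 to 0.27, limma adjusted p = 0.317) became 0.14 under quantile normalization (adjusted p = 0.0477) and -0.085 under median centring.

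**Figure D2:**
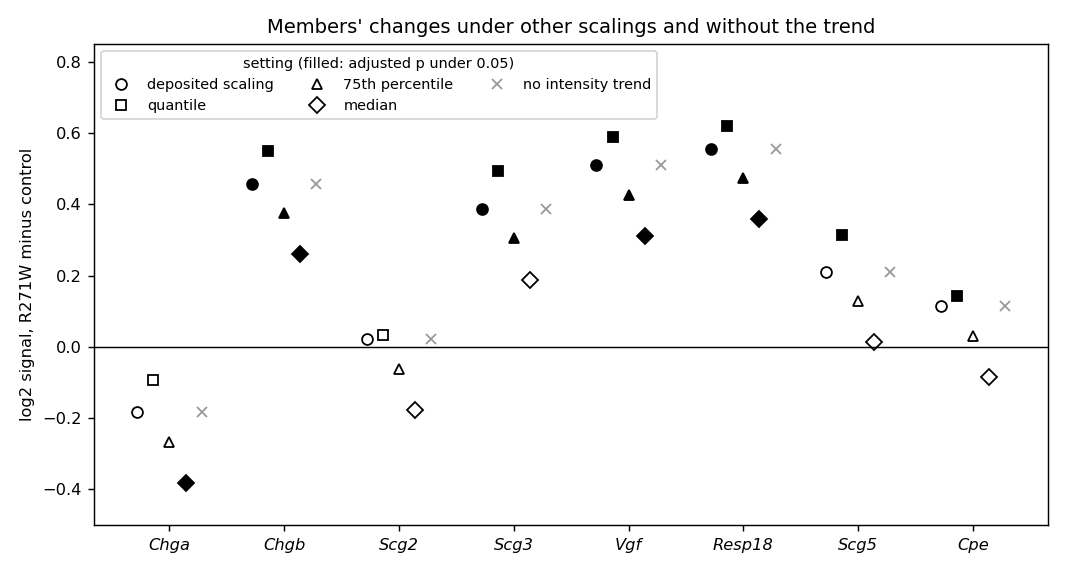
Log2 signal of R271W minus control (vertical axis) for the 8 tested members under the deposited scaling, 3 other scalings and without the intensity trend, with black symbols for an adjusted p under 0.05 and open or grey ones otherwise. Chgb, Vgf and Resp18 stay above 0 and black under all 4 scalings, Scg3 loses its call under median centring, and without the trend none of the 8 is black.

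Centring an array shifts all its log2 signals by the same amount and so leaves differences between members as they are, which quantile normalization does not. The members were therefore also set against each other within each array with the deposited scaling, a comparison chosen after their values had been seen. Of the 28 pairs among the 8 tested members, 15 had differences in log2 signal that did not overlap between the groups, a share near that of pairs of any genes as bright (50.9% where both had mean signals of at least 200, and 34.2% over all tested genes). Chgb, Scg3, Vgf and Resp18, the called members, each increased relative to Chga, Scg2 and Cpe, which were not called, on every R271W array. The calls came from the same signals, so part of this separation is built in and is not a separate result about the family. The difference in log2 change was widest between Resp18 and Chga, at 0.74, and was 0.64 between Chgb and Chga. Among Chgb, Scg3, Vgf and Resp18 themselves all pairs overlapped, with differences of 0.047 to 0.17. Scg5 stood above Chga by 0.40 without overlap, and below Scg3 by 0.18 and Resp18 by 0.34 without overlap.

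Prolactin is stored in the same granules, and its gene went in the opposite direction to Chgb, Scg3, Vgf and Resp18. Prl had signals of 3006, 3171 and 3347 in R271W cells and 4147, 4522 and 4327 in controls, a log2 change of -0.45 (limma adjusted p = 0.00048, or 0.0583 when the intensity trend was dropped). Relative to Prl within each array, the log2 signal of all 8 tested members was higher on every R271W array than on any control array, as it was for 61.9% of the 10142 other genes tested. The change in this ratio ran from 0.26 for Chga and 0.47 for Scg2 to 0.96 for Vgf and 1.00 for Resp18. The 8 ratios share the Prl values, whose own fall supplies 0.45 of each, and the two-sided exact permutation p was 0.1 for each, the smallest that 3 arrays against 3 allow, and 0.1 after Benjamini-Hochberg adjustment over the 8. The growth hormone gene Gh1 gave 5588, 6140.4 and 7287 in R271W cells and 6463, 6781 and 6085 in controls, which overlapped (log2 change -0.031, limma adjusted p = 0.853).

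**Figure D3:**
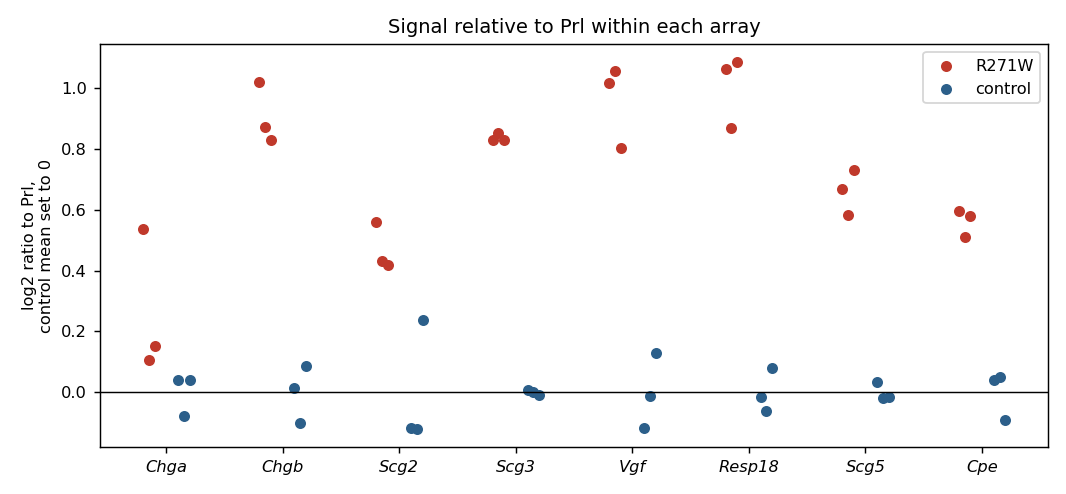
Log2 ratio of each tested member's signal to the Prl signal of the same array (vertical axis), with the control mean of each gene set to 0, for R271W arrays (red, left of each pair) and control arrays (blue, right). All R271W points lie above the control points of the same gene, by 0.26 on average for Chga and by 1.00 for Resp18.

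Other genes of prohormone processing and granule formation, among them the convertase gene Pcsk6, were called in both directions. Of 38 listed genes, 29 were tested, of which 6 fell and 2 rose (8.98% and 9.87% of all genes), with a median log2 change of -0.10, beside 0.057 for all genes. Of the 17 with mean signals of at least 200, 4 fell and 1 rose, against 19.2% and 11.3% of all probe sets that bright. The counts were 13 lower and 2 higher under median centring, and 5 lower and 3 higher under quantile normalization. Syt4, named after its values were seen, was not called on its brightest probe set (log2 change -0.13, limma adjusted p = 0.306). Its other probe set was called lower, at -0.52 (adjusted p = 0.000759). Pcsk6, which encodes PACE4, had signals of 81.4, 88.9 and 76.9 in R271W cells and 223, 221 and 205 in controls. The groups were far apart, with a log2 change of -1.39 (SE 0.13, limma adjusted p = 1.27e-05). Hid1, needed for dense-core granule maturation, fell by 0.77 on the log2 scale (144 ± 6.63 in R271W cells and 247 ± 17.7 in controls, n = 3 each, limma adjusted p = 0.000432), and its other probe set fell by 0.55. Ica1, which encodes the islet autoantigen ICA69 of granule biogenesis, fell by 0.54 on the log2 scale (398 ± 27.1 in R271W cells and 581 ± 41.9 in controls, n = 3 each, limma adjusted p = 0.00112).

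The other called genes of that list were a luminal calcium-binding pair, lysosomal proteases and a vesicle GTPase. Nucb2, the nesfatin-1 precursor gene, had means of 355 ± 17.1 in R271W cells and 594 ± 27.6 in controls (n = 3 each, log2 change -0.74, limma adjusted p = 7.65e-05). Its relative Nucb1 had a log2 change of -0.27, and its adjusted p of 0.0372 was lost under 9 of 16 alternatives, with values up to 0.17. The protease gene Ctsl had a log2 change of -0.47 (limma adjusted p = 0.000596) and a second probe set at -0.22 that did not pass. Ctsh, a cathepsin with aminopeptidase activity, rose by 0.62 on the log2 scale, and Rab3d, a GTPase of secretory vesicles, by 0.59 (limma adjusted p = 0.00374 and 0.000971). Both cathepsin calls were lost without the intensity trend (limma adjusted p = 0.0561 for Ctsl and 0.0537 for Ctsh). Named for their roles after their values were seen, Pcsk1n, which encodes the PC1 inhibitor proSAAS, had a log2 change of 0.20 (interval 0.018 to 0.38, limma adjusted p = 0.131), the amidating enzyme gene Pam -0.12 (interval -0.26 to 0.014, adjusted p = 0.222) and the convertase gene Furin 0.12 (interval -0.18 to 0.42, adjusted p = 0.633).

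**Figure D4:**
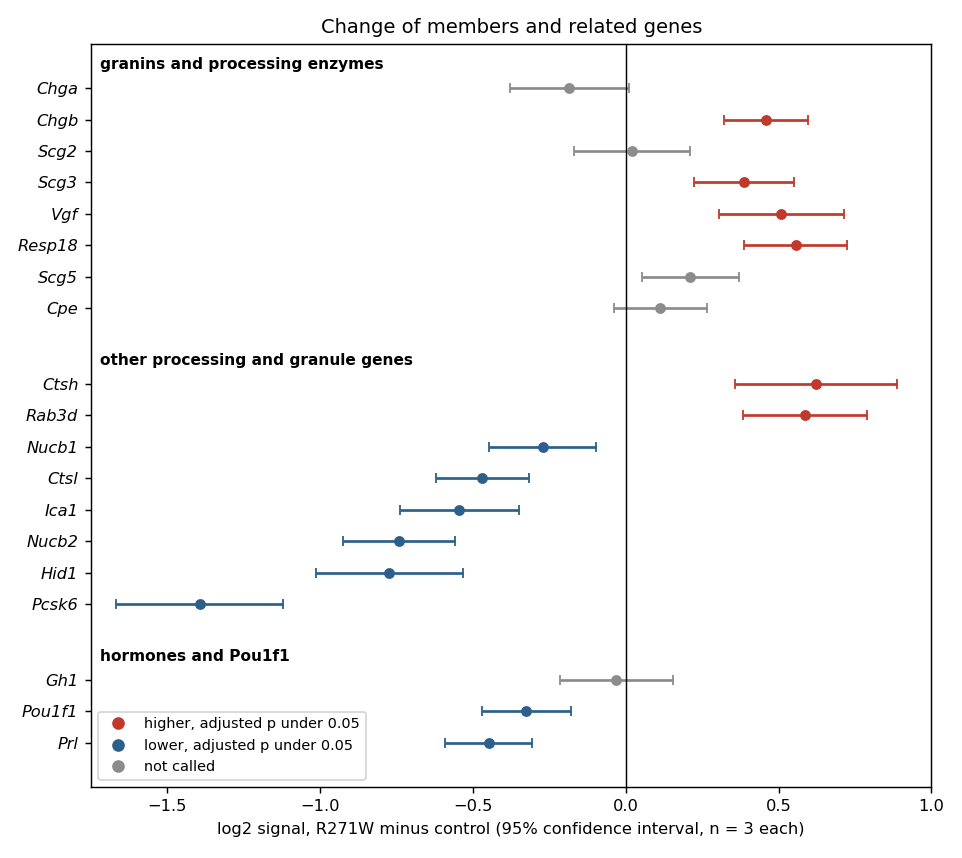
Log2 signal of R271W minus control with 95% confidence intervals (horizontal axis, n = 3 arrays each) for the 8 tested members, the 8 called genes of the processing and granule list, and Gh1, Pou1f1 and Prl, coloured by call. Members that passed lie between 0.39 and 0.56, whereas Pcsk6 lies at -1.39 and Prl at -0.45.

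Few of the listed precursors cut by prohormone convertases, a family that here includes Furin and Pcsk6, were measurable. Of 20 listed peptide precursor genes 3 were tested, and Nppc, which encodes C-type natriuretic peptide, was the one called lower, as were 8.98% of all genes, with signals of 33.5, 42.5 and 55.2 in R271W cells and 85.2, 62.9 and 77.3 in controls. It fell by 0.80 on the log2 scale (limma adjusted p = 0.0315), and the call was lost without R271W replicate 1 or 2, without control replicate 1 or 3 and without the intensity trend (adjusted p = 0.1, 0.0722, 0.121, 0.0936 and 0.0911). Cartpt (0.19, limma adjusted p = 0.432) and Bdnf (0.40, limma adjusted p = 0.322) did not pass. Pomc, the classical precursor cut by the convertases of Pcsk1 and Pcsk2, averaged 5.01 ± 4.85 in R271W cells and 6.59 ± 6.68 in controls (n = 3 each), under the filter.

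Of 14 genes of transcription factors and cofactors listed as regulators of granin or convertase genes, 9 were tested. Of these 2 fell and 0 rose (8.98% and 9.87% of all genes), with a median log2 change of -0.20, beside 0.057 for all genes. The 2 that fell were also the only listed regulators tested at mean signals of at least 200, where 19.2% of probe sets were called lower. Atf1, of the CREB family, had signals of 973, 939 and 959 in R271W cells and 1216, 1238 and 1319.8 in controls, a log2 change of -0.39 (limma adjusted p = 0.00185, or 0.067 without the intensity trend). Crem, an activator or repressor depending on its isoform, had a log2 change of -0.37 on its brightest probe set (274 ± 11.8 in R271W cells and 354 ± 30.9 in controls, n = 3 each, limma adjusted p = 0.0216). That call was lost without R271W replicate 2 or 3, without control replicate 2 or 3 and without the intensity trend (adjusted p = 0.0617, 0.052, 0.0706, 0.0996 and 0.108). Of 4 other tested Crem probe sets 2 also passed, at -0.48 and -0.45, while the others read -0.52 and 0.064. Creb1 and Atf2, which bind the same cyclic AMP response element and are named after their values were seen, had log2 changes of 0.053 (limma adjusted p = 0.829) and -0.11 (adjusted p = 0.793). A dimmer tested Creb1 probe set read -0.075 (limma adjusted p = 0.853). Among the other regulators that did not pass, Pax6 had a log2 change of 0.39 (limma adjusted p = 0.058), Crtc1 of -0.52 (adjusted p = 0.238), Egr1 of 0.40 (adjusted p = 0.415) and Rcor1 of -0.27 (adjusted p = 0.448). The probe sets of Rest, the repressor of neuronal and endocrine secretory genes, lay under the filter, at means of 4.02 and 4.94 in R271W cells and 2.86 and 2.81 in controls.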

How the data were processed

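The authors deposited an intensity for each probe set, on a linear scale, computed with MAS5 according to the submitters' processing notes (MAS5 version and detection calls: not given in the sources used here). Each array had a mean of 100.03 to 100.04 after trimming 2% at each end. Symbols came from the platform annotation, checked against a RefSeq gene table of GRCr8 by Entrez ID, which changed 0 of 20826. Signals were taken to log2 and fitted for all probe sets with limma 3.58.1 in R 4.3.3 (lmFit, eBayes with an intensity trend, two-sided, Benjamini-Hochberg, threshold 0.05). The 57 Affymetrix controls were left out, and a filter at the 40th percentile of mean log2 signal (a signal of 11.2) kept 18625 of 31042 probe sets. A gene was represented by its brightest probe set. The median within-group SD of log2 signal was 0.11 for the 4925 probe sets with a mean signal of at least 200 and 0.28 for the dimmer tested ones, and the number of arrays limits precision. The script was tested on simulated data. Members and lists were chosen with earlier results of these data known. Named by rule were all members, called genes and up to 6 genes with the smallest p of each list, Prl, Gh1 and Pou1f1. Syt4, Pcsk1n, Pam, Furin, Creb1 and Atf2 were named outside the rule after their values had been seen. Pomc, Rest, Dcn and S100b were also named outside it. Alternatives were other scalings, filters, a floor or offset of 3.72, other variance models, a replicate block, the mean over a gene's probe sets and leaving out each array. Figures used matplotlib 3.10.9.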

Additional observations from a re-analysis of the deposited data

How the results depend on the processing

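Higher calls among the members numbered 4 with the deposited scaling, 6 with quantile normalization, 3 with median centring and 0 without the intensity trend, and lower calls numbered 0, or 1 (Chga) with median centring. Leaving out 1 array gave 4 higher calls each time and 0 to 1 lower. Over all probe sets 1596 were higher and 1344 lower, against 730 and 3132 with median centring, 1124 and 1923 with 75th percentile centring, 634 and 431 without the trend, and 999 (without R271W replicate 2) to 1350.0 higher when 1 array was left out. In the processing and granule list 13 fell with median centring and 1 rose without the trend. In the peptide precursor list 0 fell without the trend and 0 to 1 without 1 array. In the regulator list 1 rose with a filter at the 60th percentile, 0 fell without the trend, and leaving out 1 array gave 1 to 2 lower and 0 to 1 higher. Signs turned for Scg2 (-0.18 with median centring, -0.062 with 75th percentile centring, and -0.069 to 0.14 when 1 array was left out), Cpe (-0.085 with median centring), Gh1 (-0.14 to 0.055 when 1 array was left out) and Cartpt (-0.0034 with median centring, also the precursor list's median). The median log2 change of all probe sets was 0.069, or -0.0011, -0.13 and -0.014 with quantile, median and 75th percentile scaling. Same-numbered arrays did not visibly deviate together over all tested probe sets (correlations -0.0017, 0.010 and -0.020). Such correlations cannot settle whether same-numbered cultures were handled together, which the labels do not say. With a replicate block 4 members were higher and 0 lower. Taking the mean over a gene's probe sets also gave 4 higher and 0 lower. That setting could not change the members' values, since each had 1 probe set. Where calls were lost, the cause was not tested.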
